A study of Arabidopsis thaliana with 12 samples.

Results

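FLOWERING LOCUS C (FLC, AT5G10140) and its 5 relatives MADS AFFECTING FLOWERING 1 to 5 (MAF1, AT1G77080; MAF2, AT5G65050; MAF3, AT5G65060; MAF4, AT5G65070; MAF5, AT5G65080) were described here in a list of open chromatin regions from Arabidopsis seedlings. The members were fixed by locus. Every listed region was taken that overlapped the gene, the 3 kb upstream of its transcription start site (TSS) or the 1 kb downstream of its end. These windows held 12 of the 23226 regions in the list, and the 6 loci are 6 of the 27444 protein-coding genes on the 5 chromosomes of the RefSeq annotation (assembly TAIR10.1). Nuclei were taken from whole seedlings at 10 days after germination and treated with the transposase Tn5, which cuts open DNA and tags it for sequencing (ATAC-seq). The seedlings carried mutations in the Polycomb group genes BMI1 (bmi1abc, a triple mutant), CLF and SWN (clf28swn7, a double mutant), EMF1 (emf1-2), RING1 (ring1ab, also double) or LHP1 (lhp1), or were wild type (WT). The WT was Col-0, and each of the 6 genotypes had 2 biological replicates. Shoots of bmi1abc, clf28swn7 and emf1-2 stay embryo-like, per the study, while lhp1 and the milder ring1ab go on to make leaves and flowers. Whole seedlings mix roots, leaves and shoot apices.

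The regions, Tn5 hypersensitive sites (THSs), were merged by the authors over all genotypes. A listed THS holds DNA called open in both replicates of at least 1 genotype, and the list names neither that genotype nor a signal. The merge can join overlapping calls of different genotypes. The full length and the edges of a listed THS therefore need not be those of any 1 genotype. The list alone does not allow a comparison of a mutant with WT at these loci, and no supplementary table of the study was used. It has more regions than the authors give after their filter on low signal, so it may hold weak regions. The values below have no spread over replicates, and the read depth behind each THS is unknown from the list. All shares are descriptions of this list, with no test.

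FLC encodes a MADS-box transcription factor that holds back flowering by repressing FT and SOC1. Its transcription is raised by FRI and lowered by the autonomous pathway, and the winter cold silences it through Polycomb repressive complex 2 (vernalization). MAF1, also called FLM, takes part in the response of flowering to ambient temperature and is known for its splice isoforms. MAF2 keeps plants from flowering after short cold spells, and MAF2 to MAF5 stand in tandem on chromosome 5. FLC is also transcribed in antisense from its 3′ end, as a set of long noncoding RNAs called COOLAIR.

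The sequences of the THSs nearest to the members show what the open DNA beside these genes holds. They were read from the RefSeq genome (TAIR10.1), 5′ to 3′ on the strand named, without UTRs. Capitals mark a G-box (CACGTG), a GA repeat (GAGAGA) or a CArG-box, the element that MADS-box proteins bind. The FLC stretch is the whole upstream THS plus the 3 bases next to it that complete its G-box. The FLC 3′ stretch is the part of the THS beyond the end of FLC, and the MAF2 stretch is the part of its distal THS upstream of the noncoding gene AT5G09295. The MAF1 stretch holds the CArG-box of the THS, and those of MAF4 and MAF5 are the 300 bases nearest to the TSS.
FLC upstream, chr5:3179589-3179743, minus strand: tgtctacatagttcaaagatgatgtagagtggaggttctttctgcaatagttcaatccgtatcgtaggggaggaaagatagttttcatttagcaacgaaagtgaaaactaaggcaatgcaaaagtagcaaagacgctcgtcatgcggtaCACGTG
FLC 3′ flank, chr5:3173183-3173381, plus strand: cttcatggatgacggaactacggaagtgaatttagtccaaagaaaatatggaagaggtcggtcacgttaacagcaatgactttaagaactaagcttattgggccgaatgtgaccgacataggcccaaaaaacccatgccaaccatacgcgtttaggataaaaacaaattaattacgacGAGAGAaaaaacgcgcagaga
MAF1 upstream, chr1:28954599-28954898, plus strand: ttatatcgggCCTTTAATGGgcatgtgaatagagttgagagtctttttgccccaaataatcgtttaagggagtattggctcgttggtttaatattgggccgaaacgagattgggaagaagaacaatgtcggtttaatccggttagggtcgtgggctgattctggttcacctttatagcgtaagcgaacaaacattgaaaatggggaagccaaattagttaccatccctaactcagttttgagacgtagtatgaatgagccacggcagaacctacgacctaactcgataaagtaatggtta
MAF2 distal, chr5:25979881-25980055, plus strand: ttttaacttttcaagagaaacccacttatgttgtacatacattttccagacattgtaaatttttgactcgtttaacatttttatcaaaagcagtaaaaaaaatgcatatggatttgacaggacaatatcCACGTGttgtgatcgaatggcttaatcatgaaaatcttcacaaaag
MAF4 upstream, chr5:25991801-25992100, plus strand: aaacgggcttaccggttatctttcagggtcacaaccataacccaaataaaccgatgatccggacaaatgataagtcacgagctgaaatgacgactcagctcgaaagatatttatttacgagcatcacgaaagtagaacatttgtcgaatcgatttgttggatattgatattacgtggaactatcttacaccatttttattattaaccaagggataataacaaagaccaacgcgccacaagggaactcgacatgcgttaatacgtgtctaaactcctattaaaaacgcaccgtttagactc
MAF5 upstream, chr5:25997030-25997329, plus strand: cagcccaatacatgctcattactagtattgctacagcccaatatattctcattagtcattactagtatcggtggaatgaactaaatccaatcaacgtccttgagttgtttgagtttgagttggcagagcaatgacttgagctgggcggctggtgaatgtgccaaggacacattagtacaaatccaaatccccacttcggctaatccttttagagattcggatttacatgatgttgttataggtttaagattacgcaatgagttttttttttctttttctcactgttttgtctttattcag
Of stretches of the same length centred on all 23226 THSs, 8.71% held a G-box at the 155 bp of the FLC stretch and 9.57% at the 175 bp of the MAF2 stretch. A GA repeat was in 18.6% at 199 bp and a CArG-box in 2.98% at 300 bp. The FLC and MAF1 stretches were cut so as to hold their motif, and the stretches of all THSs were not. These shares therefore do not say how rare the FLC and MAF1 matches are. Both strands were searched, and overlapping matches were counted separately.

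At FLC (chr5:3173382-3179448, minus strand), 4 THSs lay in the window, 2 upstream and 2 at the 3′ end. The most distal, of 616 bp at chr5:3181551-3182166, ended 2103 bp upstream of the TSS and ran into the 3′ part of the neighbouring gene AT5G10150. The upstream THS nearest to FLC, of 152 bp at chr5:3179592-3179743, ended 144 bp before the TSS, and its edge fell inside the G-box printed above. The TSS, the first exon and the 3493-bp first intron held no THS. At the other end of the gene, a THS of 220 bp at chr5:3173784-3174003 covered 178 bp of intron 6 and 42 bp of the coding part of exon 7. No other THS of the family touched an intron.

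The fourth FLC THS, of 408 bp at chr5:3173183-3173590, spanned the end of the gene, with 209 bp in the 3′ UTR and 199 bp beyond it. It covered the annotated start of AT5G01675, the antisense noncoding transcript of FLC. Of the 6 antisense transcripts in the annotation, 4 start at 3173371 or 3173372, inside this THS. The other 2 start at 3173720, between the 2 THSs of the 3′ end and 64 bp from the nearer. This THS held 6 of the 8 GA repeats found in the THSs of the family, and 5 of the 6 lay wholly or partly in the 3′ UTR and are not printed. FLC had a THS over the start of its antisense transcript and none over its own TSS. THSs numbered at least 4 in the windows of 5.77% of protein-coding genes, where the median was 1 (quartiles 1 to 2). A window grows with its gene, and that of FLC is 10067 bp long. These values were not matched for window length.

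At MAF1 (chr1:28955483-28960234, plus strand), both THSs were upstream. The nearer, of 544 bp at chr1:28954426-28954969, ended 514 bp before the TSS and held the CArG-box, which began 874 bp before the TSS. The farther, of 515 bp at chr1:28953405-28953919, ended 1564 bp before the MAF1 TSS and covered the TSS of AT1G77060, which is transcribed away from MAF1. Of the pair, AT1G77060 is the gene nearer to that THS. No THS lay in the MAF1 gene, which has 11 annotated transcripts, or in the 1 kb after it.

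MAF2 (AGL31 in the annotation, chr5:25982254-25986435, plus strand) had THSs in the outer part of its window alone. A THS of 340 bp at chr5:25979881-25980220 ended 2034 bp before the TSS and covered the start of the noncoding gene AT5G09295, which lies between it and MAF2. A THS of 241 bp at chr5:25979626-25979866 ended 2388 bp before the TSS. Of another THS, of 43 bp at chr5:25979215-25979257, 39 bp lay outside the window, and its nearest TSS was that of AT5G65040. MAF2 had no THS within 1 kb upstream, in the gene or within 1 kb downstream.

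**Figure D1:**
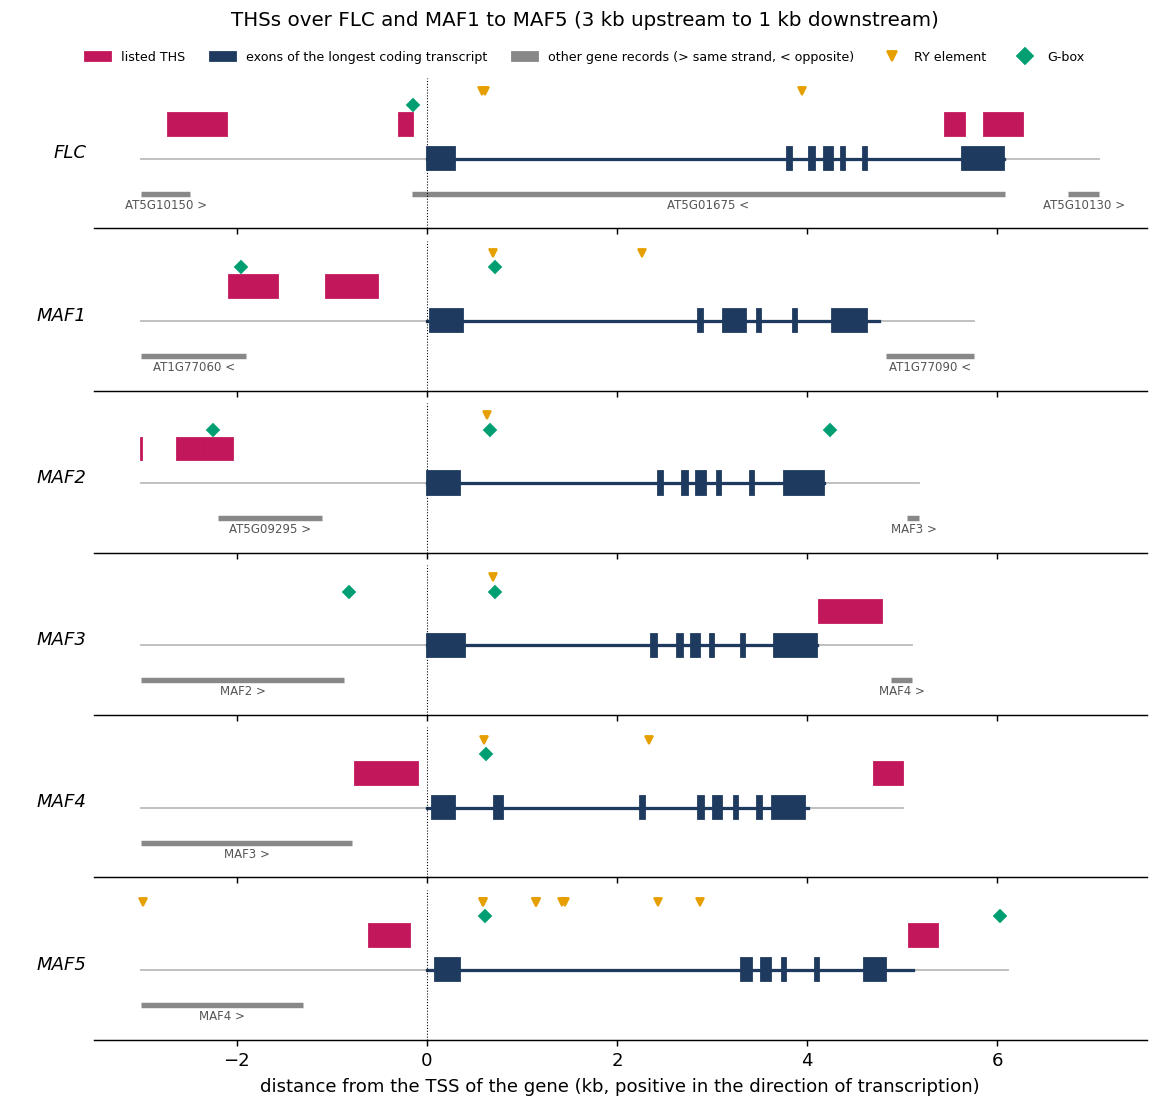
THSs (magenta) in the windows of FLC and MAF1 to MAF5, by distance from each TSS in kb, with the exons of the longest coding transcript, other gene records, RY elements and G-boxes. FLC has 4 THSs, 2 of them at its 3′ end, and no gene has a THS over the dotted line at the TSS; the THSs of 241 and 340 bp upstream of MAF2 almost touch.

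MAF3 (chr5:25987309-25991412) and MAF4 (chr5:25992193-25996202), both on the plus strand, shared a THS of 667 bp at chr5:25991434-25992100, the longest of the family. It began 22 bp after the end of MAF3 and ended 93 bp before the TSS of MAF4, and filled 85.5% of the 780 bp between them. MAF3 had no other THS. MAF4 and MAF5 (chr5:25997504-26002619, plus strand) likewise shared a THS of 435 bp at chr5:25996895-25997329. It lay 693 bp after the end of MAF4 and ended 175 bp before the TSS of MAF5, and covered 33.4% of the 1301 bp between these genes. The 873 bp between MAF2 and MAF3 held none.

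The last THS of the cluster, of 305 bp at chr5:26002571-26002875, lay over the 3′ end of MAF5. It covered 49 bp of the longest of the 3 annotated MAF5 transcripts and began 241 bp after the end of the transcript with the longest coding sequence. Its nearest TSS was that of BST1, 1007 bp away. From the start of MAF2 to the end of MAF5, 20366 bp, there were 3 THSs.

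**Figure D2:**
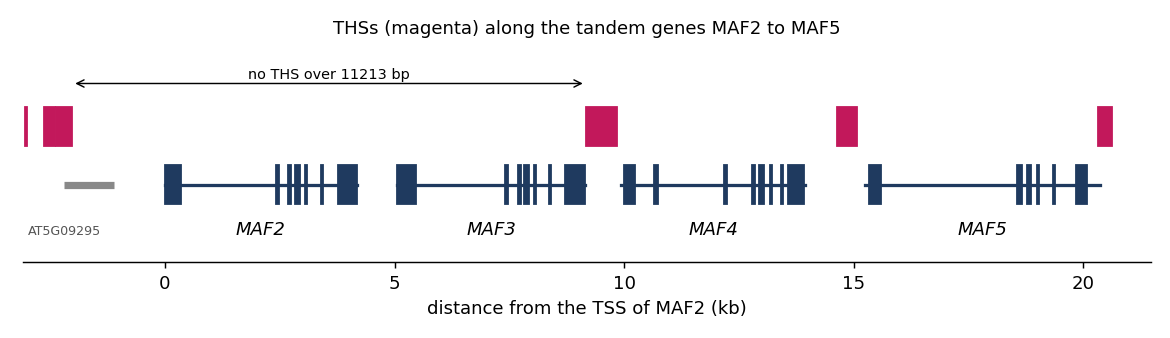
THSs along the tandem genes MAF2 to MAF5, by distance from the TSS of MAF2 in kb, with exons in blue and the noncoding gene AT5G09295 in grey. The arrow marks the 11213 bp without a THS that hold all of MAF2 and MAF3, while the spacers before MAF4 and MAF5 each hold a THS.

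The stretch around a TSS without any THS was 11213 bp for MAF2 and MAF3 together (chr5:25980221-25991433), 8067 bp for MAF1, 5588 bp for FLC, 5241 bp for MAF5 and 4794 bp for MAF4. Of the 23221 gaps between neighbouring THSs in the genome, 8.99% were at least as long as that of MAF2 and MAF3, and 33.1% as that of MAF4. These shares count each gap once, whereas a TSS falls more often in a long gap than in a short one. They therefore do not say how unusual such a stretch is around a TSS. The coding sequences of MAF2 and MAF3 were 93.6% identical, the closest pair of the family, and FLC and MAF5 were the most distant at 72.3%. Repeated sequence limits where reads can be placed. In the bare stretch of MAF2 and MAF3, 0.41% of positions began a 50-base sequence found again on the 5 chromosomes, and 0% a 150-base sequence. Only exact repeats were counted, not similar sequence with mismatches. Whether read placement bears on this stretch was not tested. Whether the authors' removal of reads in regions of excessive coverage touched these stretches was not tested.

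All 6 members had a THS in the window, against 78.7% of all protein-coding genes. The member windows were 8010 (MAF4) to 10067 bp (FLC) long, and the windows of all genes were not matched to them in length. Over the TSS or within 1 kb upstream, 4 of 6 had one (FLC, MAF1, MAF4 and MAF5), against 47.6% of all protein-coding genes. None of the 6 had a THS over the TSS itself, against 26.1%. The 4 upstream THSs ended 93 to 514 bp before the TSS. Among the 13062 protein-coding genes with a THS in this zone, 54.9% had it over the TSS, and in the rest the nearest edge was a median 288 bp upstream. Each of the 6 genes stands for 16.7% of the members.

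Of the 12 THSs, 3 overlapped the body of a member gene. FLC and MAF5 were the 2 of 6 with a THS over the gene body, against 44.3% of all protein-coding genes, and in MAF5 it was the 49 bp at the 3′ end. An intron was touched in 1 of 6 (FLC), against 10.3% of the 22245 protein-coding genes with an intron. A first intron of at least 1 kb, in the transcript with the longest coding sequence, is found in 5 members (all but MAF4) and in 440 genes in all. None of these 5 had a THS in it, against 32.3% of the 440. In MAF4 that intron is 403 bp long, but 1938 bp in 4 of its 6 transcripts, and it held no THS in either form. The start of a noncoding gene was open at 2 of 2 in the windows, AT5G01675 and AT5G09295, against 14.9% of 3480 noncoding genes of the same class (lncRNA).

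The 3′ side was added as a zone after its values were seen. Over the gene's end or within 1 kb downstream, 4 of 6 members had a THS (FLC, MAF3, MAF4 and MAF5), against 28.9% of all protein-coding genes. For MAF3 and MAF4 this is the THS upstream of the next gene in the tandem. By bases, THSs covered 10.3% of the member windows (4447 of 43185 bp), against 6.81% of the windows of all protein-coding genes. Within 1 kb upstream they covered 29.0% in the members, against 14.3%, and within 1 kb downstream 23.8% against 7.90%. In introns the members were at 0.83%, against 1.81%, and in exons at 4.07%, against 4.56%. In these zones, taken from the transcript with the longest coding sequence, every covered base of the family was in FLC.

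**Figure D3:**
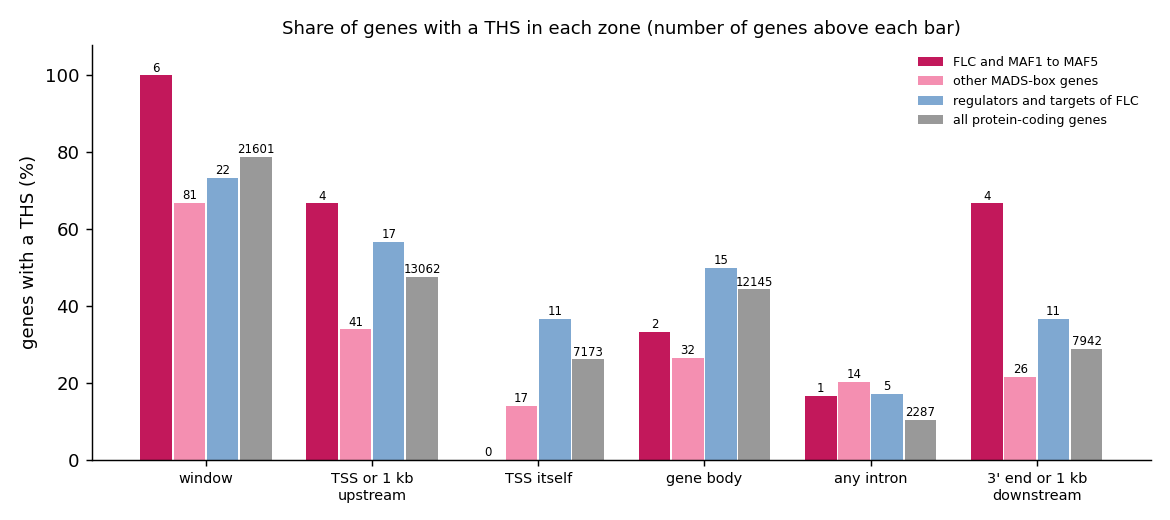
Share of genes (%) with a THS in each zone, for FLC and MAF1 to MAF5, 121 other MADS-box genes, 30 regulators and targets of FLC, and all protein-coding genes, with the number of genes above each bar. The members stand at 4 of 6 for the upstream zone and for the 3′ zone, and at 0 of 6 for the TSS itself.

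**Figure D4:**
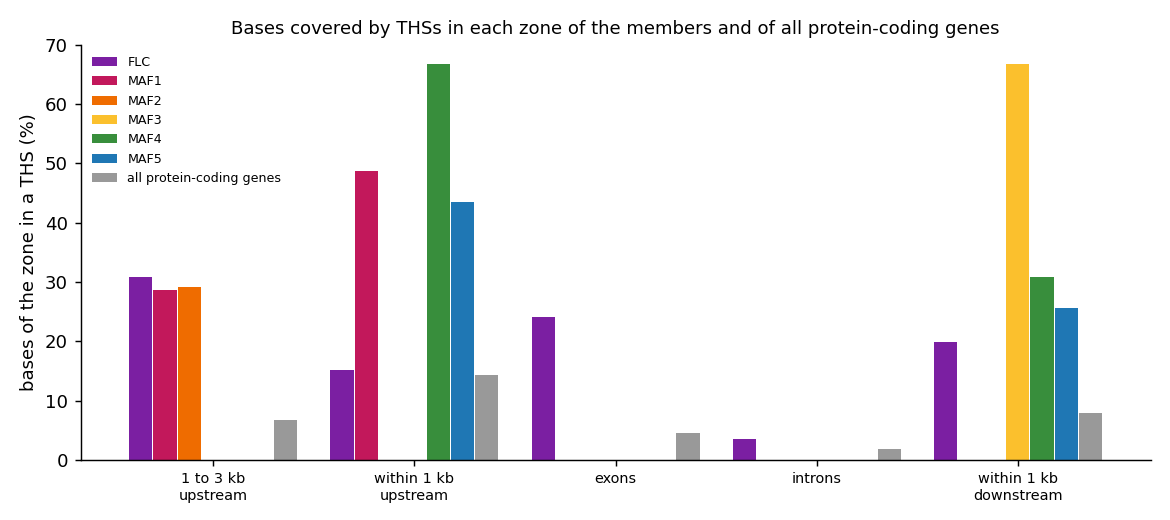
Bases of each zone covered by a THS (%), for each member and for all protein-coding genes. MAF4 reaches 66.7% within 1 kb upstream and MAF3 66.7% within 1 kb downstream, through the same THS, and FLC alone has covered exons and introns in the transcript with the longest coding sequence.

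The THSs of the 6 windows were 43 to 667 bp long with a median of 374 bp, against 254 bp over the list. Only 2 were under 200 bp, among them the THS nearest to the FLC TSS. The nearest TSS was that of a member for 4 of the 12 and that of another gene for 8. Counted by window, where neighbours share 2 THSs, another gene had the nearest TSS in 10 of 14 cases (71.4%), against 54.3% of the 40881 cases in the windows of all protein-coding genes.

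RY elements (TGCATG) are bound by the B3-domain proteins VAL1 and VAL2, and in FLC VAL1 binds them in the first intron, in the region where Polycomb silencing begins in the cold. The THSs of the 6 windows held 0 RY elements in 4486 bp, and the rest of the windows 18 in 38738 bp (0.465 per kb). Of all THSs, 16.6% held an RY element, and of all 1-kb promoters 32.2%. A G-box was found 2 times in the member THSs (upstream of MAF1 and of MAF2) and 7 times in the rest of the windows, beside the 1 that an FLC edge cut, and 15.5% of all THSs held one. Per kb, that was 0.446 in the member THSs and 0.181 in the rest of the windows, against 0.607 over all THSs. GA repeats were found 8 times in 3 of the 12 THSs and 51 times in the rest of the windows, and 27.3% of all THSs held one. Per kb, the GA repeats came to 1.78 in the member THSs and 1.32 in the rest, against 2 over all THSs. The telo-box (AAACCCTA) was found 0 and 6 times, with 3.22% of all THSs holding it, and the CArG-box 1 and 1 times, with 3.20%. Such matches are letters in a sequence, not sites.

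Every member had an RY element between 500 and 700 bp downstream of its TSS, in the first intron of the transcript with the longest coding sequence. This place was chosen after the values were seen, and the members share ancestry, so the 6 are not independent. The sequences around it follow, read along the gene, with the RY element (on either strand) and the G-box in capitals. For MAF1 and MAF2 only 30 bases are given, since other transcripts have an exon there, and these end inside the G-box.
FLC, chr5:3178822-3178871, minus strand: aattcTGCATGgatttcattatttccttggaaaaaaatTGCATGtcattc
MAF1, chr1:28956177-28956206, plus strand: TGCATGttattcaagaaacttttctacacg
MAF2, chr5:25982891-25982920, plus strand: TGCATGtgattcaagaattttttctacacg
MAF3, chr5:25987999-25988048, plus strand: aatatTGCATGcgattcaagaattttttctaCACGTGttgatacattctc
MAF4, chr5:25992792-25992841, plus strand: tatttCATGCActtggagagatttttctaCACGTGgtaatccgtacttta
MAF5, chr5:25998086-25998135, plus strand: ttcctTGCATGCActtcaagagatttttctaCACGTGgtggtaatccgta
The RY element began 582 bp after the TSS in FLC, 587 in MAF5, 604 in MAF4, 637 in MAF2, 694 in MAF1 and 695 in MAF3. FLC had another at 615 bp and MAF5 another at 589 bp, on the other strand. In the 5 MAF genes, but not in FLC, a G-box began 24 to 26 bp after the RY element. An RY element in this place was found in 6.01% of the 24913 protein-coding genes of at least 740 bp, and an RY element with a G-box within 40 bp downstream in 9 of them (0.0361%). These 9 were the 5 MAF genes, ZFP5, WOL, AT4G21240 and AT5G01880. Both counts use the place chosen from the members and include the members, so they do not measure how rare the pairing is. None of the 6 intronic sites lay in a THS, and the nearest THS was 697 (MAF4) to 3430 bp (MAF3) away. The first intron of MAF5 held 9 RY matches, some of them overlapping on opposite strands, and those of the other members 1 or 2.

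The genes that act on FLC or with it were read in the same way, 30 genes of which the annotation names 29. A THS over the TSS or within 1 kb upstream was found at 17 of the 30 (56.7%), against 47.6% of all protein-coding genes. Among regions of at least 200 bp the order turned, with 33.3% against 36.8%. Of the 17, the activators SUF4, VIP4, ARP6 and PIE1, LD (autonomous pathway), VRN5 (vernalization) and SEP3 had none of at least 200 bp. Of the activators of FLC, 8 of 10 had a THS of any length in this zone. The longest was at FRI, the scaffold of the complex that activates FLC, with 875 bp. AT2G30120 and EFS, a histone H3 methyltransferase, had none. Of the autonomous pathway, which lowers FLC, 3 of 8 had one, the longest at the RNA-binding protein gene FCA with 426 bp. FY, FVE, FLD, FLK and REF6 had none in this zone, though elsewhere in the window FLK had 4 THSs, REF6 2 and FVE 1. Of the vernalization genes, 4 of 7 had one, the longest at VAL2 (HSL1 in the annotation) with 707 bp. VIN3, which is induced by cold, VRN2, a Polycomb subunit, and VAL1 (HSI2) had none in this zone, though VAL1 had 2 elsewhere in its window.

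SVP, the MADS-box partner of FLC, had a THS of 389 bp over its TSS, and SEP3 had a THS of 117 bp over its own. The targets SOC1 (AGL20) and FT and the FT partner FD had none in this zone, though SOC1 had 2 THSs elsewhere in its window. Among the 121 other MADS-box genes of the annotation, 41 had a THS over the TSS or within 1 kb upstream (33.9%). In the window 81 had a THS (66.9%), and 26 had a THS over the 3′ end or within 1 kb downstream (21.5%). FLC and its relatives stood at 4, 6 and 4 of 6 in the same zones. Of the other MADS-box genes, 17 had a THS over the TSS itself (14%) and 32 over the gene body (26.4%). An intron was touched in 14 of the 69 with an intron (20.3%). In these zones the members stood at 0, 2 and 1 of 6.

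**Figure D5:**
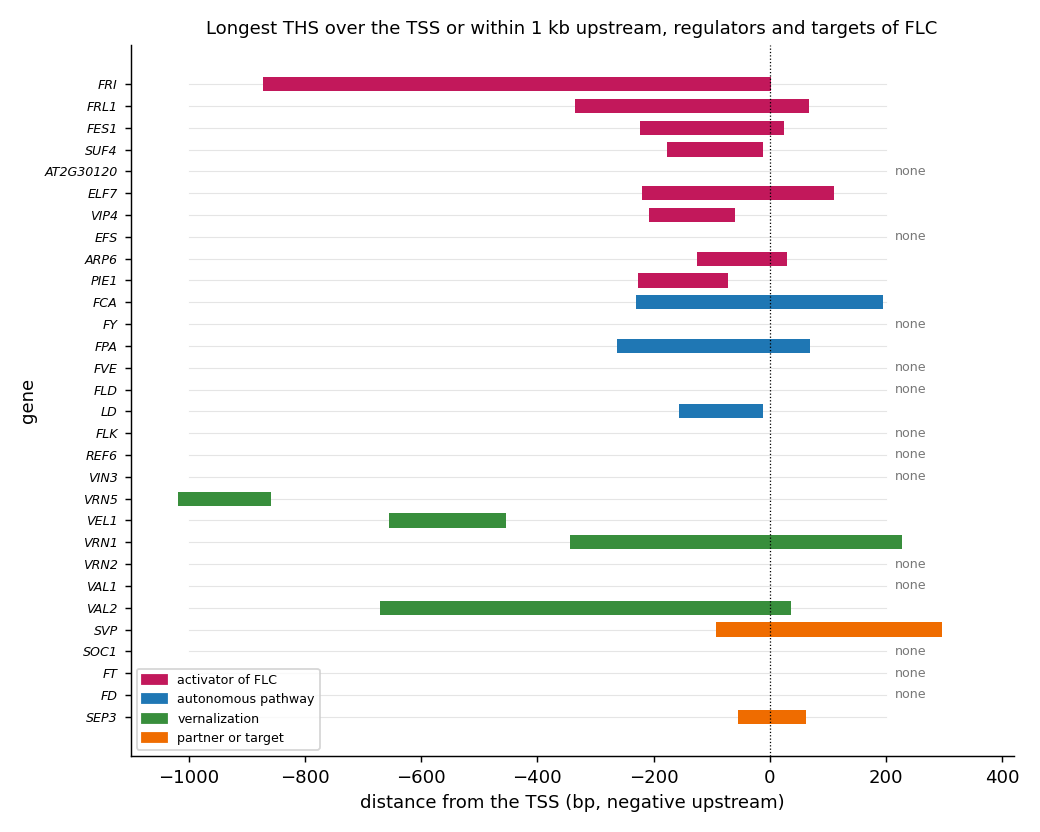
The longest THS over the TSS or within 1 kb upstream of the 30 regulators and targets of FLC, by distance from the TSS in bp, coloured by role. Bars that cross the dotted line cover the TSS; the 13 genes marked "none" have no THS in this zone.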

How the data were processed

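The authors trimmed ATAC-seq reads of 12 samples (Trimmomatic), mapped them with bowtie to TAIR10 without the organelle genomes, removed duplicates (Picard) and reads in regions of excessive coverage, and called peaks per replicate with MACS2 (extension 200 bp, q-value threshold 0.05). Peaks of the 2 replicates of a genotype were intersected and the genotypes merged. The deposited list holds coordinates alone, with no count, signal, genotype or replicate, so the depth per sample and the precision it gives are unknown from it. The authors also describe a filter on low signal, and the list is longer than the number they state for its output. Whether the list precedes that filter was not tested. A merge keeps a region opened in any genotype and can join overlapping calls of different genotypes. Intersection can leave pieces shorter than 200 bp. The samples fall into 6 genotypes by their labels, but enter no comparison.

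THS positions were compared with RefSeq gene models of TAIR10.1, whose chromosome lengths hold every region, with Python 3.11.15, Biopython 1.88 and NumPy 2.4.6. Coordinates count from 1. The TSS is the outer 5′ end of the gene record, and distances run from the nearer edge of a THS. Exons and introns are those of the transcript with the longest coding sequence, except that an intron counted as touched in any transcript's model for the share of genes. Motifs were matched exactly on both strands. The interval search was tested on simulated regions. No test was made. The named genes were all 6 members with every THS of their windows and other genes whose record a THS overlaps. Of the 30 regulators and targets, those with no THS over the TSS or within 1 kb upstream were named. Also named were those whose THSs there are all under 200 bp, the longest of each role, and the partner and targets. The annotation pairs AT2G30120 with no name. The members and lists were chosen with earlier results of these data known. Alternatives were regions of at least 200 bp, merging regions under 150 bp apart, midpoints in place of overlap, other window and promoter limits, any transcript start, and regions widened by 100 bp for motifs.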

Additional observations from a re-analysis of the deposited data

How the results depend on the processing

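For 12 results, 57 alternatives were computed, and 54 lay within 1.5 times the value given. The RY element and telo-box counts were 0, and settings that only drop regions could return nothing but 0. Those settings are among the 54. With windows that began 1 kb upstream, the THSs in the windows numbered 7 in place of 12, and their G-boxes 0 in place of 2, as both G-boxes lie farther out. THSs then covered 7.19% of the member windows, against 6.67% for all protein-coding genes. With regions of at least 200 bp, 10 of the 30 regulators and targets of FLC had a THS over the TSS or within 1 kb upstream, in place of 17, which is 33.3% against 36.8% of all protein-coding genes and turns the order round. That setting also left 3 members in place of 4 (50.0%, against 36.8%), since the THS nearest to FLC is 152 bp long. A 500-bp promoter likewise left 3, without MAF1 (50.0%, against 40.7%). With a window of 1 or 2 kb upstream, MAF2 had no THS and 5 members had one (83.3%), against 68.3% and 73.8% of all protein-coding genes. No paired analysis was possible because the list has no value per sample. Leaving out a replicate could not be done for the same reason, and the depth of each sample and the height of each THS are unknown from it.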
